A study of Rattus norvegicus with 20 samples.

Results

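The 150 transcript clusters described here had a lower mean level in subcutaneous tissue of rosiglitazone rats than in each of the 3 other groups of the study. Log2 expression was measured on 1 Affymetrix Rat Gene 2.1 ST array per sample, in male ZDF rats (strain label Zucker), with 5 arrays in each of 4 groups that the labels name lean control, obese, rosiglitazone and resveratrol. Lean control rats ate a standard chow and obese rats a stock diet for 6 weeks, and all rats were housed singly under a reversed light cycle. The labels give neither a dose nor a length of treatment, nor the diet or body weight of the 2 treated groups, and the tissue is given as subcutaneous without further detail. Each transcript cluster combines the array's probes for 1 transcribed region. Members were selected on the log2 group means of the 4 groups. A cluster was a member if its rosiglitazone mean lay at least 0.585 log2 units (1.5-fold) below each of the 3 other group means and if at least 1 of those means was 4 or higher. Of the 36685 clusters measured, 278 met these conditions, and the 150 with the largest gap to the lowest other group mean were kept, which is 0.409% of the table. Because these group means chose the members, the size of each gap is a description of the choice and carries no test.

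Rosiglitazone is a thiazolidinedione, a synthetic ligand of the nuclear receptor PPAR gamma. PPAR gamma pairs with RXR on direct repeats of a short half-site in DNA, turns on genes of lipid uptake and storage in fat cells, and is also known to lower the expression of other genes, in part without direct DNA contact. Subcutaneous fat holds adipocytes beside a dense capillary bed, mural cells, fibroblasts and their progenitors, and immune cells, and resveratrol is a plant polyphenol that does not belong to the thiazolidinediones. In a bulk sample such as this one, fewer cells of a type and less RNA per cell cannot be told apart.

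Of the 150 members 60 carried a single gene symbol, for 59 genes, since 2 of the members are clusters of Etl4. Of these genes 4 had a further cluster that is not a member, namely C1qtnf9, Etl4, Nnat and Notch3, and 3 of the 4 further clusters met the rule but ranked after the limit. One further member carried several symbols, and 89 were not listed in the probe annotation used here. The named members fall by their known roles into 12 genes of blood vessels, 17 genes of secreted or matrix proteins, 14 genes of the cell surface and membranes and 16 genes that act inside the cell, a grouping made after the values were seen. Several members are not separate measurements. Only 128 different value profiles occur among the 150 members, and 30 members share all 20 values with another member, in 8 sets of up to 10.

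Members differed among themselves chiefly in how much the arrays of the other groups spread. In 95 members the SD among the 5 obese arrays was 1 or less, and the means of the other groups lay close together, with a median range of 0.36 log2 units. In the other 55 the obese SD was over 1, and the 3 other means spanned a median of 3.06. An obese SD over 1 occurred in 3.66% of the table. The first set holds 58 of the 60 clusters with a single symbol, and the second holds 53 without one, Lum and Cmahp being the exceptions. These sets were formed after the values were seen and are not tested against each other.

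In the 95 low-spread members the array medians ran from 5.44 to 5.83 in lean control, from 5.22 to 5.58 in obese and from 5.53 to 5.78 in resveratrol. The rosiglitazone medians ran from 4.17 to 4.72, below those of all 15 other arrays. The rule chose members for a low rosiglitazone mean, so these medians and the differences that follow describe the choice and carry no test. The median difference of these members from obese was -1.01 log2 units (2.01-fold), from resveratrol -1.22 (2.33-fold) and from lean control -1.18 (2.26-fold), against medians over all clusters of -0.08, -0.02 and -0.01. In 68 of the 95 the 3 other means lay within 0.585 of each other, so the label of transcripts lower with rosiglitazone alone describes their values. It does not describe most of the 55 high-spread members, in which the median resveratrol minus obese difference was -3.06 log2 units. Resveratrol was the lowest other group in 54 of the 55. The exceptions to this picture include Lum, whose highest mean was that of resveratrol, and Cmahp, whose 3 other means lay within 0.585 of each other. The 8 members of identical values at the limit of the choice are exceptions too, with means of 5.30 in resveratrol and 5.51 in obese.

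**Figure D1:**
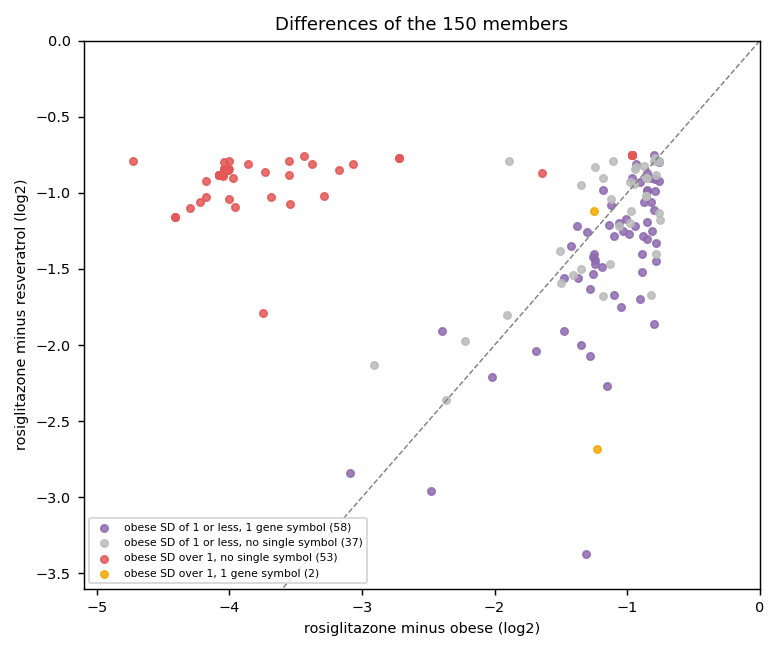
Each point is 1 of the 150 members, with the rosiglitazone minus obese difference of group means on the horizontal axis and the rosiglitazone minus resveratrol difference on the vertical axis, both in log2 units. The dashed line marks equal differences. Low-spread members lie near or below the line, while most high-spread members lie far to the left, around their median of -4 against obese and -0.88 against resveratrol.

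Of the 20 arrays 4 stood apart in the high-spread members. The median of the 55 was 8.76 in lean control 1, 8.63 in obese 3, 7.61 in obese 5 and 7.25 in obese 2. The other lean control arrays read 3.89 to 5.77, the other obese arrays 3.47 and 4.77, resveratrol 2.98 to 4.06 and rosiglitazone 1.81 to 2.84. These are the same 4 arrays in which the SD over all 36685 log2 values was lowest, at 1.66 in obese 3, 1.80 in obese 5 and 1.82 in both obese 2 and lean control 1, while the rosiglitazone arrays had an SD of 1.93 to 1.98. Whether the narrower distribution of these arrays has a part in the high values was not tested. With the 4 arrays left out, 123 of the 150 members were chosen again and 134 still met the rule.

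**Figure D2:**
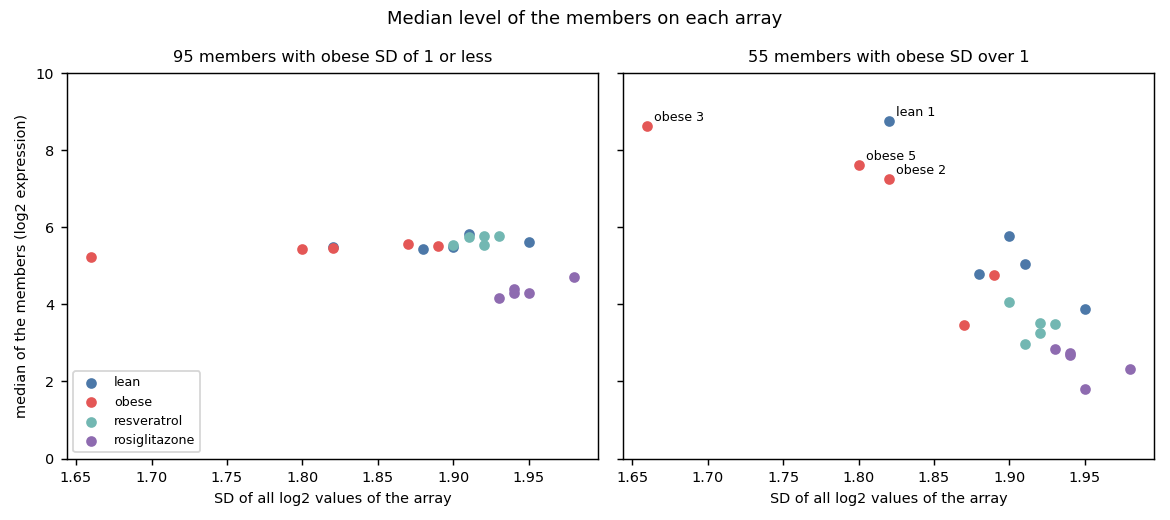
Each point is 1 array, placed by the SD of all its log2 values (horizontal axis) and the median log2 expression of the members on it (vertical axis), with the 95 low-spread members on the left and the 55 high-spread members on the right. On the left the 5 rosiglitazone arrays lie between 4.17 and 4.72, below every other array, and on the right 4 arrays with an SD of 1.66 to 1.82 carry medians of 7.25 to 8.76. The members were chosen for a low rosiglitazone mean.

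Counts of calls follow the same division. A call is an adjusted p under 0.05 from limma, with Benjamini-Hochberg adjustment over all 36685 clusters. Against obese, 122 members were called lower with rosiglitazone (77 low-spread and 45 high-spread), where 6.12% of all clusters were called lower. That count was 55 (54 and 1) with a covariate for the SD of each array. It was 63 (54 and 9) without the 4 arrays of lowest SD. That setting left only obese 1 and obese 4 as obese arrays. Calls were lost in both sets, and more of them in the high-spread members. The shares of all clusters called in these 2 settings are not given here, so the losses are not read as traits of either set. The array SD ran from 1.93 to 1.98 in rosiglitazone and from 1.66 to 1.89 in obese. The covariate therefore partly follows the groups. Against lean control 99 were called lower (74 and 25), with 1.70% of the table. With 1 array left out at a time the high-spread calls against lean control ranged from 6, without rosiglitazone 5, to 44, without lean control 2. They numbered 7 without lean control 1, 10 without lean control 4 and 16 without rosiglitazone 2. Against resveratrol 74 were called lower, of which 73 were low-spread and 1 high-spread, with 0.946% of the table. In all 3 comparisons together 63 members were called, each of them low-spread and 42 of them named, against 0.368% of the table, and 18 members were called in none. Since the rule used the same means, these shares are given only to place the members and nothing is read from them. In 58 members, 29 of them named, each rosiglitazone array lay below each of the 15 other arrays, as did 0.395% of the table.

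Among the 12 blood vessel genes are surface proteins of the capillary wall, junction proteins, and transcription and signalling genes of arteries and mural cells. In each the obese SD was at most 1, and in 8 the 3 other group means lay within 0.585 of each other. The gap to the lowest other mean ran from 0.78 to 1.93 log2 units (1.72-fold to 3.81-fold). In 5 of them, Car4, Emcn, Jam2, Podxl and Notch3, no rosiglitazone array reached any other array.

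Car4, a carbonic anhydrase anchored to the luminal face of capillary endothelium, had the largest gap of the group. The lean control arrays read 5.75, 5.24, 4.75, 4.76 and 4.05, the obese arrays 5.33, 5.42, 4.30, 5.31 and 4.63, the resveratrol arrays 5.45, 5.47, 4.88, 5.14 and 5.04 and the rosiglitazone arrays 3.58, 2.88, 2.68, 3.25 and 2.53. The mean was 5.0 ± 0.50 in obese and 2.98 ± 0.43 in rosiglitazone (SD, n = 5 each), a 4.04-fold difference. The 3 other group means lay between 4.91 and 5.20. Lean control 5, at 4.05, came nearest to the highest rosiglitazone array, at 3.58.

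Emcn encodes endomucin, a sialomucin of capillary and venous endothelium. Levels were 5.71, 6.28, 5.89, 6.05 and 6.09 in the rosiglitazone arrays, 7.41, 6.89, 7.22, 7.37 and 7.42 in the obese arrays, 7.16, 7.51, 7.51, 7.39 and 7.55 in the resveratrol arrays and 6.99, 7.46, 7.90, 7.27 and 7.33 in the lean control arrays. The rosiglitazone mean was 6.0 ± 0.22 against 7.26 ± 0.22 in obese, 7.42 ± 0.16 in resveratrol and 7.39 ± 0.33 in lean control, and the lowest other array lay 0.61 above the highest rosiglitazone array. The resveratrol minus obese difference was 0.16 ± 0.16 (SE), with an adjusted p of 0.529 in limma.

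Jam2, an adhesion molecule of endothelial junctions, read 8.28, 7.86, 8.07, 7.67 and 7.65 in lean control, 7.48, 7.68, 7.18, 8.08 and 8.07 in obese, 8.02, 7.80, 7.95, 7.87 and 7.81 in resveratrol and 6.35, 6.77, 6.0, 6.67 and 6.47 in rosiglitazone. Podxl, the sialomucin podocalyxin of endothelium and kidney podocytes, read 6.99, 6.50, 7.75, 7.54 and 6.97 in lean control, 6.95, 6.85, 6.94, 7.27 and 7.03 in obese, 7.13, 7.13, 7.07, 7.05 and 7.02 in resveratrol and 5.67, 6.25, 5.32, 6.08 and 6.06 in rosiglitazone. Notch3, a receptor of vascular smooth muscle and pericytes, read 5.54, 5.48, 5.98, 5.23 and 4.95 in lean control, 5.86, 5.65, 5.28, 5.72 and 5.45 in obese, 5.47, 5.58, 5.21, 5.62 and 5.81 in resveratrol and 4.45, 4.88, 4.39, 4.82 and 4.62 in rosiglitazone. In each of the 3 the rosiglitazone arrays formed the lowest block, with gaps of 1.24 log2 units (2.37-fold), 1.14 log2 units (2.2-fold) and 0.80 log2 units (1.74-fold). A further Notch3 cluster, 17826729, read 4.13 ± 0.17 with rosiglitazone and 4.86 ± 0.15 in obese, with a gap of 0.67 and no overlap. The resveratrol arrays of Podxl were tight, with an SD of 0.05, and the lean control arrays were wide, with 0.50.

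The other vessel genes overlapped between groups in at least 1 array. Cldn5, the claudin of endothelial tight junctions, read 4.84, 5.56, 4.64, 4.36 and 4.09 in lean control, 4.50, 4.18, 3.82, 4.93 and 4.65 in obese, 5.27, 4.57, 5.20, 5.09 and 5.09 in resveratrol and 3.57, 3.62, 4.02, 3.08 and 3.36 in rosiglitazone. Cd93, a lectin-like receptor of endothelium, read 4.98, 5.63, 6.07, 4.90 and 4.98 in lean control, 5.47, 4.63, 5.02, 5.19 and 5.30 in obese, 5.39, 5.44, 5.41, 5.78 and 5.85 in resveratrol and 3.72, 4.92, 3.83, 4.72 and 4.18 in rosiglitazone. Sox17, a transcription factor of arterial endothelium, read 5.13, 4.97, 5.33, 5.17 and 5.33 in lean control, 5.35, 5.42, 4.38, 5.38 and 5.20 in obese, 5.61, 5.18, 5.19, 5.35 and 5.15 in resveratrol and 3.88, 4.44, 3.79, 5.10 and 4.30 in rosiglitazone. For Cldn5 only obese 3 lay under the highest rosiglitazone array, for Cd93 lean control 4 and obese 2 did, and for Sox17 lean control 2 and obese 3 did. Cd34, a sialomucin of endothelium and of progenitor cells, read 5.55, 6.94, 6.32, 6.04 and 6.66 in lean control, 5.73, 5.85, 4.79, 6.12 and 6.64 in obese, 6.11, 6.34, 6.78, 6.65 and 6.57 in resveratrol and 4.98, 4.65, 4.99, 5.46 and 5.14 in rosiglitazone. Only obese 3, at 4.79, fell among the rosiglitazone arrays of Cd34. The remaining members of the group were Cd300lg, a capillary surface protein, with a gap of 0.78, Tmem100, a membrane protein of arterial endothelium known from the mouse, with 0.80, and Angpt4, a ligand of the receptor Tek, with 1.28. Tmem100 was also low in several obese arrays. Its means were 4.48 ± 0.66 in lean control, 3.85 ± 0.67 in obese, 4.91 ± 0.39 in resveratrol and 3.05 ± 0.71 in rosiglitazone (SD, n = 5).

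**Figure D3:**
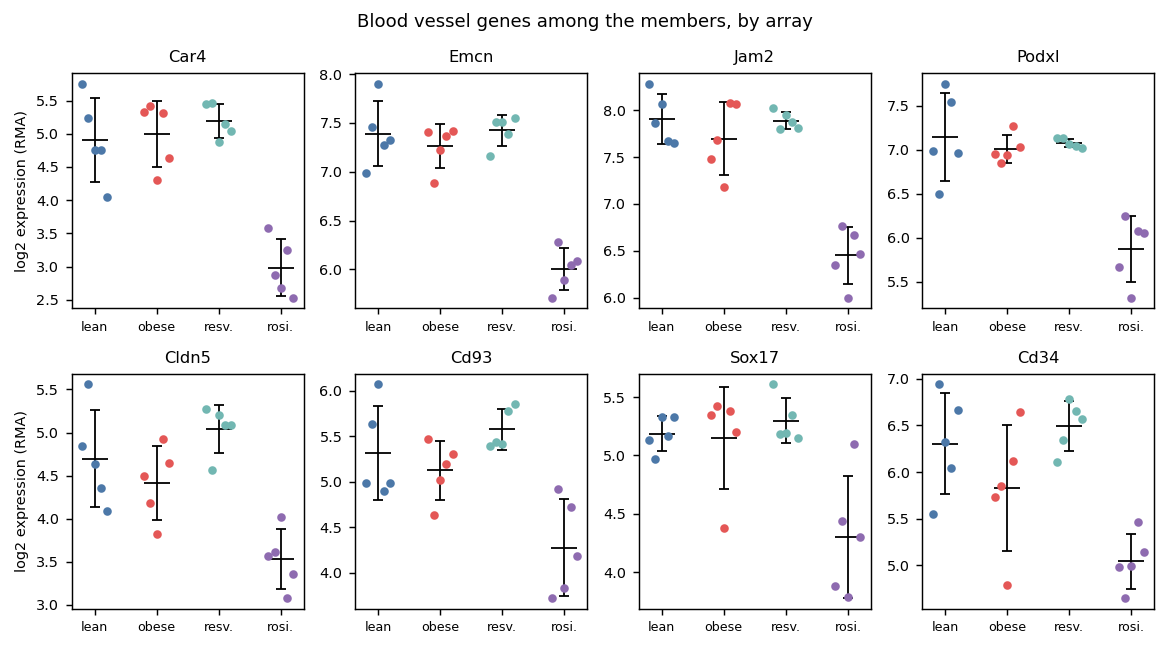
Log2 expression (vertical axis) of 8 blood vessel genes among the members in the 4 groups, with 1 point per array, a bar at the mean and whiskers of 1 SD (n = 5); the vertical axes do not start at 0. For Car4, Emcn, Jam2 and Podxl the 5 rosiglitazone arrays lie below all others, and for Cldn5, Cd93, Sox17 and Cd34 single arrays overlap.

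The 3 general endothelial markers measured from the endothelium list did not all move the same way. Cdh5 and Tek had their lowest group mean in rosiglitazone, and Vwf had its highest there. This covers the list only. Genes outside it, such as Tie1 and Sox7, met the rule but ranked after the limit and are not described here. The endothelium list held 5 names, of which 3 could be measured and none is a member. Cdh5 met the rule with a gap of 0.71 but ranked 183, after the limit. Of these Cdh5, the cadherin of endothelial junctions, was lower with rosiglitazone than in obese, with a log2 difference of -0.79 ± 0.18 (SE, limma adjusted p = 0.00691), with -1.09 against resveratrol (adjusted p = 0.00146) and -0.71 against lean control (adjusted p = 0.0233). Cdh5 read 8.61, 8.53, 8.25, 8.05 and 7.67 in lean control, 8.36, 8.39, 7.90, 8.37 and 8.48 in obese, 8.49, 8.62, 8.56, 8.84 and 8.48 in resveratrol and 7.34, 7.94, 7.17, 7.77 and 7.33 in rosiglitazone. The lowest lean control array, at 7.67, and the lowest obese array, at 7.90, fell within the rosiglitazone range. Tek, the angiopoietin receptor, differed by -0.67 from resveratrol (adjusted p = 0.0324) and -0.67 from lean control (adjusted p = 0.0189), and by -0.48 from obese (adjusted p = 0.0521), which did not pass.

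Vwf, the von Willebrand factor stored in endothelial granules, moved in the opposite direction. In lean control its arrays read 3.82, 4.95, 5.12, 4.36 and 4.91, in obese 4.54, 4.23, 4.63, 4.80 and 4.58, in resveratrol 4.66, 4.63, 4.52, 4.77 and 5.0 and in rosiglitazone 5.44, 5.93, 5.21, 5.82 and 5.63. It was higher with rosiglitazone than in obese by 1.05 ± 0.21 (limma adjusted p = 0.00248), by 0.89 against resveratrol (adjusted p = 0.0222) and by 0.97 against lean control (adjusted p = 0.00673). All 5 rosiglitazone arrays lay above all 15 others. As background, 8.90% of all clusters were called higher with rosiglitazone than in obese. Some of these calls depended on single arrays. With 1 array left out at a time, Vwf kept its call against resveratrol in 4 of 10 settings, Tek kept its call against resveratrol in 2 of 10, and Cdh5 kept its call against lean control in 5 of 10. The mean of the 3 endothelium markers per array ran from 6.06 to 6.72 in rosiglitazone and from 6.14 to 6.60 in obese. In that mean the lower values of Cdh5 and Tek and the higher values of Vwf offset each other. Its overlap between the groups therefore does not show unchanged markers. In the smooth muscle and pericyte list, with 2 genes measured, 1 was higher with rosiglitazone than in obese and none was lower.

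**Figure D4:**
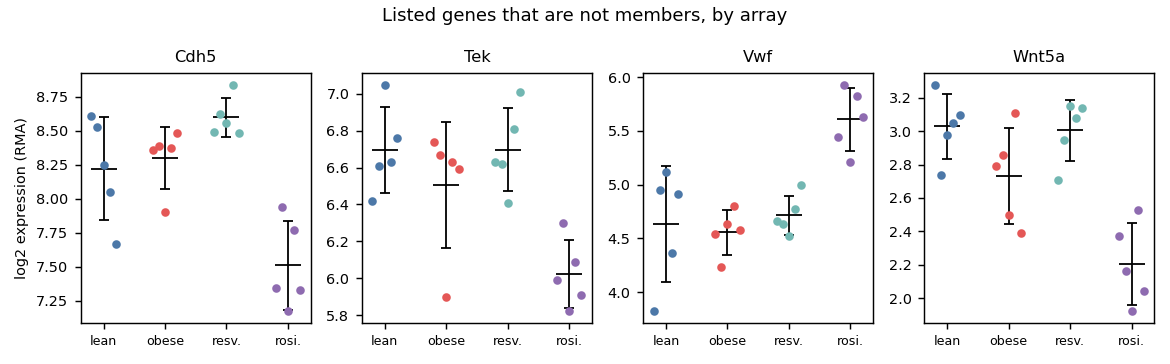
Log2 expression (vertical axis) of 4 listed genes that are not members, with 1 point per array, a bar at the mean and whiskers of 1 SD (n = 5); the vertical axes do not start at 0. Cdh5, Tek and Wnt5a have their lowest group mean in rosiglitazone, and Vwf has all 5 rosiglitazone arrays, from 5.21 to 5.93, above every other array.

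The 17 secreted and matrix genes include an adipokine, a phospholipase, BMP and IGF regulators, and collagen-associated proteins. The gap ran from 0.80 to 1.97 log2 units (1.74-fold to 3.92-fold), and in 9 of the 17 the rosiglitazone arrays lay below every other array. The 3 other means were less alike here than among the vessel genes, with a median range of 0.61 against 0.24, and only 6 of the 17 held them within 0.585.

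C1qtnf9 encodes CTRP9, a secreted relative of adiponectin. Obese arrays read 5.58, 5.79, 5.22, 5.51 and 5.59, resveratrol arrays 6.10, 5.94, 5.88, 6.34 and 5.79, lean control arrays 5.58, 5.66, 3.99, 4.80 and 5.08 and rosiglitazone arrays 2.87, 3.28, 3.19, 3.32 and 2.61. The rosiglitazone mean of 3.05 ± 0.31 was 5.6-fold below obese and 7.75-fold below resveratrol, and no rosiglitazone array passed 3.32, while the lowest other array read 3.99. Resveratrol was 0.99 ± 0.24 above lean control (limma adjusted p = 0.077, not passed), the smallest adjusted p of any member in that comparison. A further C1qtnf9 cluster, 17703572, had group means of 1.66 to 2.42, all below the median cluster level of 2.55, and a gap of 0.15.

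Pla2g2a, the secreted group IIA phospholipase A2 of inflamed tissue, was the next of this group by gap. The lean control arrays read 5.02, 5.76, 6.55, 5.25 and 6.0, the obese arrays 6.48, 6.34, 5.94, 6.50 and 6.36, the resveratrol arrays 5.30, 5.40, 6.07, 5.97 and 6.42 and the rosiglitazone arrays 3.54, 3.34, 4.15, 4.61 and 3.97. The rosiglitazone mean was 3.92 ± 0.51 and the obese mean 6.32 ± 0.23 (SD, n = 5), a 5.29-fold difference, and the highest rosiglitazone array, 4.61, stayed under the lowest other array, 5.02.

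A set of members belongs to the BMP family or regulates it. Chrdl1, a chordin-like antagonist that binds BMPs, read 7.19, 8.72, 7.62, 7.52 and 7.93 in lean control, 8.56, 8.15, 7.80, 8.37 and 7.91 in obese, 8.71, 8.29, 8.72, 8.67 and 8.14 in resveratrol and 6.13, 6.44, 5.99, 7.13 and 6.64 in rosiglitazone. Gdf10, a ligand also called BMP3b, read 3.90, 4.72, 4.0, 4.62 and 4.41 in lean control, 4.47, 5.23, 4.08, 3.95 and 3.65 in obese, 5.10, 4.76, 4.63, 3.80 and 3.83 in resveratrol and 3.36, 2.45, 3.15, 3.20 and 2.99 in rosiglitazone. Bmp3, its closest relative, read 3.26, 5.02, 3.51, 4.92 and 4.53 in lean control, 4.02, 3.48, 2.99, 4.65 and 3.41 in obese, 4.86, 5.02, 4.39, 3.93 and 3.81 in resveratrol and 2.59, 2.48, 2.77, 2.55 and 2.91 in rosiglitazone. In all 3 the rosiglitazone arrays stayed below the others, by 0.29 for Gdf10 (3.36 against 3.65), 0.08 for Bmp3 (2.91 against 2.99) and 0.06 for Chrdl1 (7.13 against 7.19). Inside the cell, Id1 and Id4, inhibitors of basic helix-loop-helix factors and known BMP response genes, were members as well, with gaps of 0.81 and 1.01. The highest rosiglitazone array of Id4 read 3.45 and the lowest other array 3.66, while the arrays of Id1 overlapped.

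Among the growth factor regulators, Igfbp4 and Igfbp3 bind insulin-like growth factors and Fgf10 is a ligand of fat progenitors. Igfbp4 read 5.48, 6.90, 7.0, 6.12 and 6.65 in lean control, 6.26, 5.47, 4.95, 5.46 and 6.63 in obese, 6.89, 6.83, 6.54, 6.98 and 7.12 in resveratrol and 5.05, 4.14, 4.86, 4.35 and 4.60 in rosiglitazone. Igfbp3 read 7.58, 7.32, 8.54, 7.53 and 7.79 in lean control, 7.60, 8.34, 6.85, 8.0 and 6.61 in obese, 7.76, 7.68, 7.73, 6.97 and 6.26 in resveratrol and 5.91, 6.64, 5.68, 6.60 and 6.67 in rosiglitazone. Fgf10 read 5.87, 6.20, 6.58, 5.90 and 5.60 in lean control, 6.25, 6.67, 5.42, 6.72 and 5.81 in obese, 6.28, 6.69, 6.71, 6.16 and 6.14 in resveratrol and 5.40, 4.68, 4.65, 5.43 and 5.57 in rosiglitazone. In Igfbp4 and in Fgf10 only obese 3 dipped under the highest rosiglitazone array, and in Igfbp3 obese 5 and resveratrol 5 did. The resveratrol minus obese difference of Igfbp4, 1.12 ± 0.30, had an adjusted p of 0.0697 and did not pass.

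Among the collagens and small proteoglycans was Col1a1, the alpha-1 chain of type I collagen. Levels were 9.71, 8.11, 10, 8.95 and 8.82 in the rosiglitazone arrays, 10.51, 10.33, 9.58, 10 and 10.79 in the obese arrays, 9.07, 10.32, 10.72, 10.07 and 10.79 in the resveratrol arrays and 8.53, 11.02, 10.83, 9.71 and 11.13 in the lean control arrays. The rosiglitazone mean was 9.12 ± 0.75 against 10.24 ± 0.47 in obese, and 10 of the 15 other arrays lay above the highest rosiglitazone array. Lum, lumican, a proteoglycan of collagen fibrils, is 1 of the 2 named high-spread members. In lean control its arrays read 4.45, 7.18, 5.73, 4.87 and 5.13, in obese 6.03, 5.68, 3.44, 5.21 and 5.93, in resveratrol 6.17, 7.09, 6.99, 6.63 and 6.65 and in rosiglitazone 4.67, 2.77, 4.36, 4.06 and 4.27. It was low in obese 3, at 3.44, and high in all 5 resveratrol arrays. The others were Fmod, fibromodulin, a related proteoglycan, Col6a6, a type VI collagen chain, and the matrix proteins Sparcl1 and Abi3bp, with gaps of 0.80 to 1.02. The rosiglitazone arrays of Col6a6, Sparcl1 and Abi3bp lay below every other array, and those of Fmod did not.

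Sfrp2, a secreted Wnt antagonist, read 5.41, 7.20, 5.56, 5.91 and 5.44 in lean control, 5.65, 6.74, 6.33, 6.18 and 6.32 in obese, 7.34, 7.39, 6.80, 6.92 and 6.0 in resveratrol and 5.70, 4.36, 5.07, 4.75 and 4.57 in rosiglitazone. Lean control 1, 3 and 5 and obese 1 lay under the highest rosiglitazone array, 5.70. Obp3, a rat lipocalin of the odorant-binding family, had the widest spread of the other group means among the named members, 2.95. Its mean was 6.22 ± 2.10 in lean control and 3.28 ± 0.90 in obese, a difference of -2.95 ± 0.72 with an adjusted p of 0.12, the smallest of any member in that comparison. Only 8 of its 15 other arrays lay above the highest rosiglitazone array, 3.93.

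**Figure D5:**
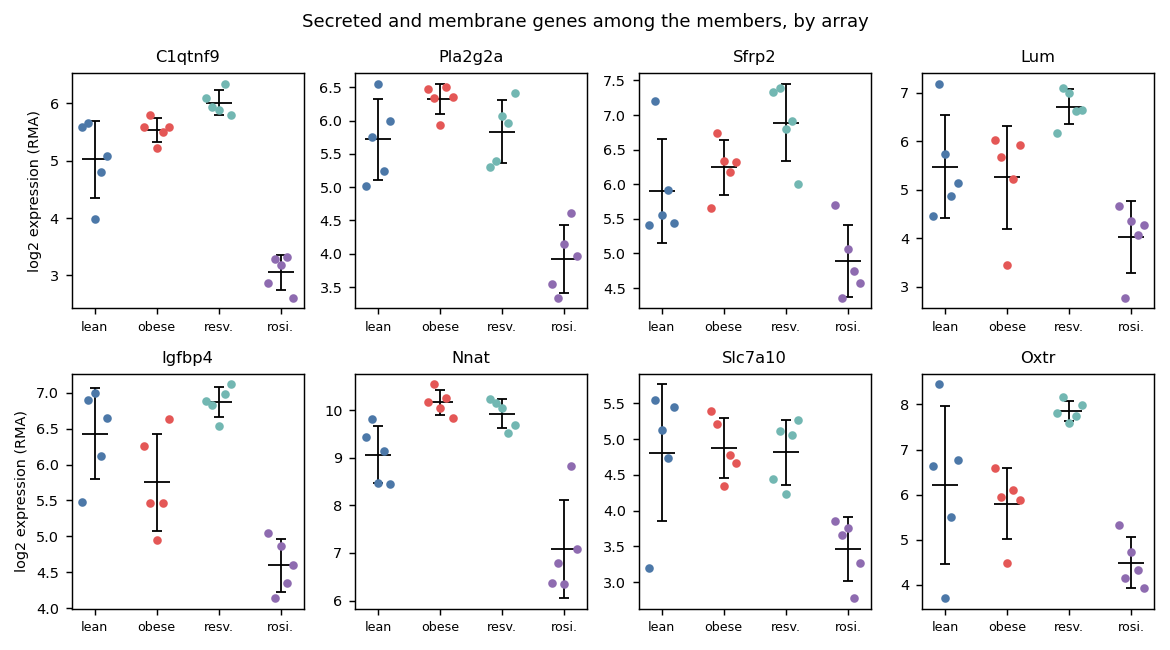
Log2 expression (vertical axis) of 8 secreted and membrane genes among the members, with 1 point per array, a bar at the mean and whiskers of 1 SD (n = 5); the vertical axes do not start at 0. For C1qtnf9 and Pla2g2a the rosiglitazone arrays lie below all others, and for Lum, Igfbp4, Nnat, Slc7a10, Oxtr and Sfrp2 between 1 and 4 other arrays overlap with them.

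The listed matrix and fibroblast genes did not all move the same way. In the adipose progenitor and fibroblast list 8 genes were measured, and Col1a1 and Lum are its only members here. Among the 6 others, 2 were higher with rosiglitazone than in obese and none was lower. These were Postn, the matricellular protein periostin, at 1.15 ± 0.22 (limma adjusted p = 0.00196), and Pi16, a marker of fat progenitors, at 1.10 ± 0.36 (adjusted p = 0.0446). In the matrix and remodelling list, with 8 genes and no member, Lox, the enzyme that cross-links collagen, was higher at 1.71 ± 0.35 (adjusted p = 0.00316), and Sparc, a matricellular protein, was lower at -0.37 ± 0.12 (adjusted p = 0.0474). The other 6 did not pass.

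In the Wnt signalling list 7 genes were measured, and Sfrp2 is its only member here. Of the 6 others Wnt5a, a non-canonical Wnt ligand, was lower with rosiglitazone than in obese at -0.52 ± 0.15 (limma adjusted p = 0.0289), although its rosiglitazone mean of 2.21 ± 0.25 lies below the median cluster level of 2.55. With 1 array left out at a time that call held in 5 of 10 settings. Ccn5, a matricellular protein induced by Wnt, was higher at 1.57 ± 0.25 (adjusted p = 0.000326), and the other 4 did not pass.

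The 14 genes of the cell surface and membranes had gaps of 0.75 to 1.98 log2 units (1.68-fold to 3.94-fold). In 8 of them the rosiglitazone arrays lay below every other array, and in 11 the 3 other means lay within 0.585. Nnat, the imprinted endoplasmic reticulum proteolipid neuronatin, had the largest gap of any named member. Obese arrays read 10.17, 10.55, 10.04, 10.26 and 9.83, resveratrol arrays 10.23, 10.15, 10.05, 9.52 and 9.69, lean control arrays 9.43, 9.82, 8.48, 9.14 and 8.45 and rosiglitazone arrays 6.36, 6.79, 6.34, 8.84 and 7.08. The obese mean of 10.17 ± 0.27 and the rosiglitazone mean of 7.08 ± 1.03 differed 8.51-fold. Rosiglitazone 4, at 8.84, lay above 2 lean control arrays, and without it the gap was 2.42 in place of 1.98. A further Nnat cluster, 17778926, differed less, with 4.85 ± 0.57 in obese and 3.73 ± 0.52 in rosiglitazone (2.18-fold) and a gap of 0.63.

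Slc7a10 encodes the neutral amino acid transporter Asc-1 and Hcar1 the lactate receptor, both known from adipocytes. Slc7a10 read 3.20, 5.55, 5.12, 4.73 and 5.45 in lean control, 5.39, 5.21, 4.35, 4.78 and 4.67 in obese, 4.44, 5.11, 4.23, 5.05 and 5.26 in resveratrol and 3.86, 3.66, 3.76, 2.78 and 3.27 in rosiglitazone. Hcar1 read 6.36, 4.78, 5.76, 5.20 and 5.21 in lean control, 4.84, 5.02, 4.50, 5.01 and 4.51 in obese, 4.75, 4.86, 4.72, 4.40 and 4.89 in resveratrol and 4.56, 3.91, 3.81, 4.08 and 3.50 in rosiglitazone. Lean control 1 of Slc7a10, at 3.20, lay within the rosiglitazone range, and the other 14 arrays did not. For Hcar1 the obese minus lean control difference was -0.69 ± 0.24 and the resveratrol minus lean control difference -0.74 ± 0.24, neither of which passed (limma adjusted p = 0.263 and 0.174).

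Oxtr, the oxytocin receptor, had the largest resveratrol minus obese difference among the named members. The lean control arrays read 6.63, 8.45, 3.70, 5.51 and 6.77, the obese arrays 6.59, 5.95, 4.47, 6.11 and 5.88, the resveratrol arrays 7.81, 8.16, 7.59, 7.75 and 7.98 and the rosiglitazone arrays 5.33, 4.14, 4.73, 4.33 and 3.92. The resveratrol mean was 7.86 ± 0.22 against 5.80 ± 0.79 in obese, a difference of 2.06 ± 0.58 that did not pass (limma adjusted p = 0.0738). Lean control 3, at 3.70, was the lowest of all 20 arrays, and lean control 2, at 8.45, the highest.

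In further surface genes the rosiglitazone arrays lay below every other array. Bcam, a laminin receptor, read 6.71, 6.79, 6.92, 6.44 and 6.36 in lean control, 6.59, 6.34, 5.99, 6.28 and 6.87 in obese, 6.55, 6.63, 6.44, 6.69 and 6.74 in resveratrol and 4.69, 5.15, 4.96, 5.0 and 5.43 in rosiglitazone. Or51e1, an odorant receptor also found outside the nose, read 5.39, 5.23, 5.52, 4.11 and 3.87 in lean control, 4.99, 4.76, 4.02, 5.25 and 5.65 in obese, 5.45, 5.63, 5.31, 5.57 and 4.86 in resveratrol and 3.20, 3.64, 3.55, 3.77 and 3.08 in rosiglitazone. Chrna1, the alpha subunit of the muscle acetylcholine receptor, read 4.79, 5.05, 5.54, 4.61 and 4.52 in lean control, 4.94, 4.96, 5.14, 5.20 and 4.45 in obese, 5.74, 5.55, 4.81, 5.65 and 5.49 in resveratrol and 4.33, 3.62, 4.12, 3.99 and 4.20 in rosiglitazone. In these the lowest other array exceeded the highest rosiglitazone array by 0.56 for Bcam (5.99 against 5.43), by 0.10 for Or51e1 (3.87 against 3.77) and by 0.12 for Chrna1 (4.45 against 4.33). The same held for Pcdh17, a protocadherin, Scn7a, an atypical sodium channel, Slc26a2, a sulfate transporter, Tspan2, a tetraspanin, and Entpd2, an ectonucleotidase, with gaps of 0.78 to 1.26. Scn7a is also known from Schwann cells, and the mean of the Schwann cell and nerve list, with 3 genes measured, ran from 4.29 to 4.79 in rosiglitazone, 4.80 to 5.25 in obese, 4.81 to 5.15 in resveratrol and 5.00 to 5.19 in lean control. None of its 3 genes was called in a rosiglitazone comparison, and its part in the value of Scn7a was not tested. Pln, phospholamban, an inhibitor of the calcium pump of the sarcoplasmic reticulum, had a gap of 0.78. Ceacam1, an adhesion molecule of epithelium and endothelium, had a gap of 0.76. For both a single other array reached the rosiglitazone range.

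The 16 genes that act inside the cell were measured by 17 clusters, with gaps of 0.75 to 1.24 log2 units (1.68-fold to 2.36-fold), 14 of them with the 3 other means within 0.585. Etl4, a gene of intervertebral disc development in the mouse, headed the group, and 2 of its 3 clusters are members. In the first, the lean control arrays read 6.96, 6.59, 6.99, 6.49 and 6.20, the obese arrays 7.55, 6.55, 5.90, 6.75 and 6.30, the resveratrol arrays 7.12, 6.60, 6.35, 7.41 and 6.70 and the rosiglitazone arrays 5.15, 5.53, 5.09, 5.64 and 5.44, without overlap. In the second, lean control 5, at 4.17, lay under the highest rosiglitazone array, 4.42. The third, which met the rule but ranked after the limit, had a gap of 0.61 with a rosiglitazone mean of 4.09 ± 0.36.

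Several others regulate signalling. Lmo7, a LIM domain protein of cell junctions, read 5.03, 5.28, 5.49, 5.29 and 4.88 in lean control, 5.35, 5.17, 5.07, 5.05 and 5.42 in obese, 5.64, 5.48, 5.06, 5.62 and 5.73 in resveratrol and 4.0, 3.82, 4.17, 4.35 and 3.75 in rosiglitazone. Efhd1, a calcium-binding mitochondrial protein, read 4.23, 4.82, 5.43, 5.24 and 4.57 in lean control, 5.02, 4.54, 4.19, 4.81 and 4.15 in obese, 5.23, 4.93, 4.68, 5.41 and 5.28 in resveratrol and 3.62, 3.21, 3.59, 3.37 and 3.42 in rosiglitazone. Camk2n1, an inhibitor of calmodulin-dependent kinase II, read 6.06, 6.58, 6.67, 6.08 and 6.56 in lean control, 6.23, 6.21, 6.07, 6.14 and 6.48 in obese, 6.40, 6.32, 6.25, 6.43 and 6.17 in resveratrol and 5.30, 5.37, 5.29, 5.29 and 5.80 in rosiglitazone. In all 3 the rosiglitazone block was the lowest, and Camk2n1 was among the 3 members with the smallest spread in the other groups. Further genes of this kind were Pik3c2b, a class II phosphoinositide kinase, Bcar3, an adaptor of integrin signalling, Chp2, a calcineurin B-like protein, and Gucy1a2, a subunit of the nitric oxide receptor. Others were Dach1, a transcriptional cofactor, Cers6, a ceramide synthase, Stxbp6, a syntaxin-binding protein, and Pdzd2, a PDZ domain protein. The gaps of these 8 ran from 0.75 to 0.90. Only Pik3c2b and Pdzd2 among the 8 had no overlap between the groups. Rasd1, a Ras-like protein induced by glucocorticoids, had the most overlap among the named members, with only 5 of the 15 other arrays above rosiglitazone 4, which read 5.70. Its other 4 rosiglitazone arrays read 4.01 to 4.37. Cmahp, named after a hydroxylase of sialic acid, is the other named high-spread member, with means of 5.07 ± 1.30 in lean control, 5.07 ± 1.42 in obese, 4.95 ± 0.33 in resveratrol and 3.82 ± 0.31 in rosiglitazone (SD, n = 5).

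The promoter windows of the named members were searched for the half-site that PPAR and RXR bind, since the groups differ by a PPAR gamma ligand. RefSeq windows on GRCr8, from 250 bases before to 50 bases after the start of the gene, were available for 50 of the 59 genes. The half-site AGGTCA, on either strand, occurred in 6 of the 50 (12.0%) and in 4305 of all 27457 rat windows (15.7%). The direct repeat AGGTCANAGGTCA, which contains the half-site, occurred in 0 of 50 and in 16 of all windows (0.0583%). The 6 genes were Crispld2, Emcn, Tspan2, Chp2, Rasd1 and Chrna1. The windows of the 3 with the largest gaps and of C1qtnf9, the largest-gap secreted member and without a match, are printed here on the strand of the gene, with the match in capitals. A match on the opposite strand reads TGACCT.
Crispld2 chr19:64978706-64979005 (+ strand): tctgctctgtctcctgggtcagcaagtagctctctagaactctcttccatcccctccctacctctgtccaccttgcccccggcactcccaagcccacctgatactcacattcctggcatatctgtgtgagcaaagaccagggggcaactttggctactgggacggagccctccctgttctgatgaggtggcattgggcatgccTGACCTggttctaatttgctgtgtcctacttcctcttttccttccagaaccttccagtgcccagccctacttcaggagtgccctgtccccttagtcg
Emcn chr2:228564289-228564588 (+ strand): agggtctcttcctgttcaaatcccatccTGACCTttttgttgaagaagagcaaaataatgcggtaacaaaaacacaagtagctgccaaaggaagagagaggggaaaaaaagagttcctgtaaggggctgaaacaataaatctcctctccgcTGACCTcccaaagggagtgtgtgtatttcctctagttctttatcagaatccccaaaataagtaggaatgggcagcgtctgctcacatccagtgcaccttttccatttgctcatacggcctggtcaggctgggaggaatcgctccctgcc
Tspan2 chr2:192866030-192866329 (+ strand): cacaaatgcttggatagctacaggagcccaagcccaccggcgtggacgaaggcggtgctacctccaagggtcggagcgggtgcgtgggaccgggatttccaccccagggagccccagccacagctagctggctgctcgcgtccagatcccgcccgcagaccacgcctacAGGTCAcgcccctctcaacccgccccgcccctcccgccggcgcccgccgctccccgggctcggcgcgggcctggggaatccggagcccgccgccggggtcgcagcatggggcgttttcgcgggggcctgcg
C1qtnf9 chr15:39091189-39091488 (+ strand): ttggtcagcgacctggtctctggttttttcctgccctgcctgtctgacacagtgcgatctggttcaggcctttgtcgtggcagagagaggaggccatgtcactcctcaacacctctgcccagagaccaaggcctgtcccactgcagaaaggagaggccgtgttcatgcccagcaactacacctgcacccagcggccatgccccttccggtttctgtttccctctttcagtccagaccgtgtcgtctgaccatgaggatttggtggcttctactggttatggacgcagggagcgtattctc

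In Crispld2, a secreted cysteine-rich protein, the match begins 47 bases before the start of the gene, in Tspan2 81 bases before it, and in Emcn 222 and 99 bases before it. Crispld2 had a gap of 1.28 log2 units (2.42-fold), and its rosiglitazone arrays read 3.12, 4.29, 4.28, 4.74 and 4.04 against 5.86, 5.53, 5.42, 5.14 and 4.91 in obese. The matches are descriptions of letters in a short window, and the lack of one says nothing of binding elsewhere.

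The members without a single symbol include the largest gap of all. Levels were 6.72, 4.98, 6.43, 5.95 and 6.63 in the rosiglitazone arrays, 8.37, 8.64, 7.60, 8.66 and 9.29 in the obese arrays, 8.02, 8.61, 9.12, 7.96 and 8.82 in the resveratrol arrays and 8.23, 8.91, 9.03, 8.54 and 9.22 in the lean control arrays. This cluster, 17865372, read 6.14 ± 0.72 with rosiglitazone against 8.51 ± 0.61 in obese and in resveratrol 8.51 ± 0.51, a gap of 2.36 log2 units (5.14-fold) with no overlap. Clusters 17748270, 17800802, 17786463 and 17699707, which also rank among the 12 largest gaps, had gaps of 1.97, 1.61, 1.5 and 1.41, each with the rosiglitazone arrays below every other array. Clusters 17605197 and 17868535, with gaps of 1.56 and 1.38, overlapped in at least 1 array.

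Cluster 17774168, which carries several symbols, had the largest gap of the high-spread members, 1.79. In lean control its arrays read 11.32, 7.85, 8.69, 9.15 and 8.63, in obese 7.40, 10.98, 11.58, 8.05 and 10.76, in resveratrol 7.58, 8.43, 8.23, 7.85 and 6.84 and in rosiglitazone 6.38, 6.76, 7.01, 6.19 and 3.66. The gap rests in part on rosiglitazone 5, and without that array it was 1.20. A more usual high-spread member was cluster 17869549. Obese arrays read 3.68, 7.32, 8.89, 5.74 and 7.72, resveratrol arrays 3.63, 3.53, 3.95, 3.24 and 3.18, lean control arrays 8.79, 3.97, 5.62, 5.98 and 4.74 and rosiglitazone arrays 2.64, 2.67, 2.78, 2.36 and 1.80. In it the resveratrol and rosiglitazone arrays were both low, the obese arrays ran over a wide range, and the gap of 1.06 was that to resveratrol. In 28 of the 55 high-spread members, and in 2 of the 95 low-spread ones, the rosiglitazone mean lay below the median cluster level of 2.55. At the limit of the choice, the last 8 members and the next 10 clusters outside have identical values, with a gap of 0.75, and the next different gap is 0.74. Their means were 6.13 in lean control, 5.51 in obese, 5.30 in resveratrol and 4.55 in rosiglitazone.

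The rule set no condition on the differences among lean control, obese and resveratrol, although it used their means. No member was called between obese and lean control, where 0.0845% of all clusters were called, and at an unadjusted p under 0.05 there were 14 members (9.33%) against 13.4% of the table. None was called between resveratrol and obese, where limma called 0 clusters in the whole table, and 57 members had an unadjusted p under 0.05, against 25.2% of the table. This count of 0 depended on single arrays, with 46 members called without obese 1 (44 of them high-spread) and 41 without obese 4 (39 of them high-spread). Of these 57, 45 were high-spread members, all lower with resveratrol, and 12 were low-spread members, 11 of them higher. None was called between resveratrol and lean control, where 0.289% of the table was called, and 55 members had an unadjusted p under 0.05 (42 high-spread and 13 low-spread), against 13.5%. Without lean control 2 that comparison called 9 members, and without lean control 1 the comparison of obese with lean control called 2. The shares of all clusters called with these arrays left out are not given here, so these counts are not read as traits of the members. The smallest adjusted p of a member was 0.12 for Obp3 in the first comparison, 0.0622 for an unnamed cluster in the second and 0.077 for C1qtnf9 in the third.

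A missed threshold does not show equal levels, so the intervals were counted as well. The 95% interval of the difference lay within 2-fold in either direction in 71 of the 95 low-spread members for obese against lean control, in 71 for resveratrol against obese and in 68 for resveratrol against lean control. Among the 55 high-spread members it did so in 1, 0 and 0. The sets were split by the obese SD, and spread also widens these intervals, so the counts are not compared between them. The share over all clusters was not counted, so the counts are not read as a trait of the members. The median difference of the low-spread members was -0.07 between obese and lean control, 0.15 between resveratrol and obese and 0.03 between resveratrol and lean control, beside 0.05, -0.04 and 0.02 over all clusters. These comparisons share arrays with each other and with those of rosiglitazone.

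Whether a rosiglitazone array that took no part in the choice also lay low was examined by choosing 150 clusters again from the other 4 rosiglitazone arrays and reading the array left out. That array lay at least 0.585 below the lowest other group mean in 95, 112, 103, 89 and 126 of 150 clusters for rosiglitazone 1 to 5. Over all clusters the same was true of 2.78%, 2.57%, 3.45%, 3.23% and 3.60%. The array left out lay below the lowest other mean at all in 111 to 146 of the 150, with the fewest for rosiglitazone 4. The means of the other 3 groups were used in the choice each time, so only the rosiglitazone side is independent of it.

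Markers of other cell types and pathways are given as context for the tissue. Of the 27 lists, 140 genes could be measured, and 3 of them, Col1a1, Lum and Sfrp2, are members. The tissue carried high adipocyte markers in every array, with a list mean of 8.84 to 9.71 in lean control, 9.21 to 9.77 in obese, 9.63 to 9.83 in resveratrol and 9.59 to 9.93 in rosiglitazone. Of the 7 adipocyte genes only Slc2a4, the insulin-responsive glucose transporter, was called against obese, at 1.85 ± 0.21 (limma adjusted p = 1.04e-05). With rosiglitazone 5 of 7 fatty acid oxidation genes and 4 of 5 lipogenesis genes were higher than in obese, and none was lower. In the macrophage, mast cell, neutrophil, and B and plasma cell lists none was called in either direction in a rosiglitazone comparison. Of 7 T and NK cell genes 1 was called, Klrb1, a receptor of natural killer cells, which was lower with rosiglitazone than in obese at -0.52 ± 0.15 (limma adjusted p = 0.0276), with both means below 2.55.

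Some tissue markers varied strongly from array to array. The mean of the mammary and other gland epithelium list ran from 1.81 to 7.01 in lean control, 1.95 to 5.78 in obese, 1.82 to 2.09 in resveratrol and 1.78 to 3.53 in rosiglitazone. The skeletal muscle list ran from 2.42 to 5.83 in rosiglitazone and from 2.61 to 3.07 in obese. The part of these cells in the members' values was not tested.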

How the data were processed

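Total RNA (100 ng per sample) from 20 frozen tissue samples, which the labels call biological replicates, was hybridised to 1 array each. The deposited values are log2 expression per transcript cluster, made by the authors with RMA, per the submitters' processing notes, a method that corrects background, normalizes arrays by quantiles and summarizes probes. The table holds 36685 clusters, no missing values, a range from -0.16 to 12.48 and a median cluster mean of 2.55. The software version, the genome build of the array design and any scan batch were not given in the sources used here. Because RMA gives each array the same distribution at the probe level, a difference is relative to the rest of the array, and levels near the median may lie close to background.

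Groups were taken from the labels. Differences were tested with limma 3.58.1 in R 4.3.3 (lmFit, eBayes) in 1 model of 4 groups over all 20 arrays, without a filter, with Benjamini-Hochberg adjustment over all clusters and a call at an adjusted p under 0.05. The number of arrays limits the precision, and the median SE of a difference was 0.19 log2 units. The procedure was checked on simulated data. Per-array values are plain deposited log2 values. Levels of different clusters were not compared, since probes differ. Of the clusters, 14824 carry 1 gene symbol in GEO's platform annotation, 829 carry several and 21032 are not listed there. Clusters with several symbols or none are given by number. Probes of related or overlapping genes may share signal.

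The members and the gene lists were chosen with earlier results of these data known. Named by rule were the 12 members with the largest gap, those at the limit, those with the largest or smallest spread or the highest level, and members of the lists. The naming rule also covered called members with the smallest adjusted p among the other groups, but no member was called there. The other named members, and the grouping by role, were chosen after their values were seen. Promoter windows and their sequences come from RefSeq on GRCr8. The alternatives were quantile normalization, centring, array weights, a filter on dim clusters, another minimum level or fold in the rule, a replicate block and leaving out each array. Added after seeing the data were a covariate for the SD of each array and leaving out arrays of low SD.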

Additional observations from a re-analysis of the deposited data

Results flagged for a closer look

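Single arrays that stood apart from the 4 others of their group were looked for among the members with a gene symbol, those numbered clusters that the naming rule picks, and the medians of the low-spread and high-spread members, over 308 combinations with a group. At a rate of 1 in 20 about 15.4 would be marked by chance, and 17 were: 4 in lean control, 5 in obese, 3 in resveratrol and 5 in rosiglitazone. Levels are log2 expression.

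Etl4 cluster 17717433 read 4.17 in lean control 5, below the 5.24 to 5.61 of the other 4 arrays. The other Etl4 member, cluster 17717431, was not marked. In lean control 2, Sfrp2 read 7.20, with 5.41 to 5.91 in the other 4. The level of Abi3bp was 6.87 in lean control 1 against 7.52 to 7.76 in the rest of the group. Pdzd2 read 4.46 in lean control 5, below the 5.00 to 5.06 of the other 4 arrays.

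Pla2g2a read 5.94 in obese 3, below the 6.34 to 6.5 of the other 4 arrays. In obese 1, Angpt4 read 6.08, with 4.18 to 4.42 in the other 4. The level of Pcdh17 was 4.97 in obese 4 against 3.65 to 3.99 in the rest of the group. Sox17 read 4.38 in obese 3, below the 5.20 to 5.42 of the other 4 arrays. In obese 3, cluster 17868535 read 5.50, with 6.89 to 7.17 in the other 4.

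Pcdh17 read 3.58 in resveratrol 3, below the 4.08 to 4.26 of the other 4 arrays. In resveratrol 2, Cldn5 read 4.57, with 5.09 to 5.27 in the other 4. The level of Chrna1 was 4.81 in resveratrol 3 against 5.49 to 5.74 in the rest of the group.

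Angpt4 read 3.98 in rosiglitazone 4, above the 3.16 to 3.39 of the other 4 arrays. In rosiglitazone 4, Obp3 read 3.93, with 1.79 to 2.38 in the other 4. The level of Rasd1 was 5.70 in rosiglitazone 4 against 4.01 to 4.37 in the rest of the group. Camk2n1 read 5.80 in rosiglitazone 5, above the 5.29 to 5.37 of the other 4 arrays. In rosiglitazone 5, cluster 17774168 read 3.66, with 6.19 to 7.01 in the other 4.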

How the results depend on the processing

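Precision rests on 5 arrays per group, levels near the median of 2.55 may lie close to background, and the cause of each shift below was not tested. Directions were followed for the gaps of the 12 members with the largest gap and for Cdh5, Tek, Vwf and Wnt5a in the rosiglitazone comparisons. None of these reversed, and other members and listed genes were not followed. For the gaps of the 12 members, 288 of 288 alternatives (1.20 to 2.51) differed from the reported gap by less than the SD of the 5 rosiglitazone arrays. Most of these alternatives left out 1 array. Leaving out 1 rosiglitazone array cannot move the gap by that SD, so the count is no test of stability. Cdh5, Tek, Vwf and Wnt5a kept their side of the threshold in 196 of 240.

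Members called between rosiglitazone and obese, 122 as reported, numbered 55 with a covariate for the SD of each array (54 low-spread, 1 high-spread) and 63 without the 4 arrays of lowest SD (54 and 9). For this and the other counts of calls in this paragraph, the shares of all clusters called are not given here. Members called between resveratrol and obese, 0 as reported, numbered 1 with dim clusters left out. Between resveratrol and lean control, 0 as reported, they numbered 1 with dim clusters left out, 12 with array weights and 1 without the 4 arrays of lowest SD. Between obese and lean control, 0 as reported, there was 1 without lean control 1 and obese 3 together. With a 2-fold rule in place of 1.5-fold, 52 rows met the rule, and 52 members were chosen again and 52 still met it (39 low-spread, 13 high-spread). Members are ranked by the same gap that this rule cuts, so that all 52 rows are members follows from the rule.

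With 1 array left out at a time, called members ranged from 0 to 2 for obese against lean control, 0 to 46 for resveratrol against obese, 0 to 9 for resveratrol against lean control, 104 to 123 for rosiglitazone against obese, 70 to 74 against resveratrol and 75 to 114 against lean control. The 46 arose without obese 1 (44 high-spread), 41 without obese 4, the 9 without lean control 2 and the 2 without lean control 1. The shares of all clusters called in these settings are not given here. Rows meeting the rule ranged from 255 to 313, members chosen again from 123 to 144, members still meeting the rule from 141 to 150, and members without overlap from 58 to 81.

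Replicate numbers do not pair the samples, since same-numbered arrays correlated at -0.44 to 0.32 and 4 of 20 arrays correlated best with their own number. With the replicate number as a block, 118, 74 and 89 members were called lower with rosiglitazone than in obese, resveratrol and lean control, and 0 in each other comparison.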
